A study of Homo sapiens with 4 samples.

Results

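BRPF3 binding sites called in RKO cells arrested with mimosine were compared with those called in asynchronous RKO cells. The comparison takes every BRPF3 peak on chromosomes 1 to 22 in those conditions, 12759 asynchronous and 11235 mimosine peaks. These 23994 peaks were selected from 38123 in the 3 lists of the series; 401 asynchronous and 297 mimosine peaks on chromosomes X and Y were set aside. RKO is an established human colon carcinoma line. The asynchronous cells grew untreated in DMEM with serum, and the mimosine cells were held in 0.5 mM mimosine for 22 h. Chromatin of both was precipitated with the same homemade rabbit antibody against BRPF3, and the peaks of both lists were called against 1 rabbit IgG library, which came from a further condition of the series (mimosine, release for 3 h, then 3 mM hydroxyurea for 1 h 30 min). A description field of these libraries names other BRPF proteins, while title and antibody name BRPF3. Each condition has 1 library, so every difference below describes these libraries, without a replicate or a test, and the intervals cover counting error only. Read depth is not known for either library, and its part in the differences below was not tested.

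BRPF3 is a scaffold protein of the BRPF family. It joins a MYST acetyltransferase, chiefly HBO1 (KAT7), to small partner subunits and to chromatin, and HBO1 complexes acetylate histone tails and are known for a role at replication origins. The protein carries PHD fingers, a bromodomain and a PWWP domain, modules that read histone marks. Mimosine, a plant amino acid that chelates iron, is known to stop cells around the start of DNA synthesis. The position of these cells in the cycle was not measured in the data used here.

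A mimosine peak was found at most asynchronous sites, but it was narrower and its list was shorter. Of the 12759 asynchronous peaks, 9931 (77.8%, exact 95% interval 77.1 to 78.6%) overlapped a mimosine peak by 1 bp or more, and 2828 (22.2%) did not. Of the 11235 mimosine peaks, 11107 (98.9%, 98.6 to 99.0%) overlapped an asynchronous peak and 128 (1.14%) did not. The mimosine sites of the full lists were thus nearly all sites that asynchronous cells also held. With the 5617 top-scoring peaks of each list, where a partner can lie below the limit, the shares were 87.2% of asynchronous and 89.0% of mimosine peaks. Asynchronous peaks covered 38.2 Mb and were 2668 bp wide at the median, with quartiles at 1844 and 3674 bp. Mimosine peaks covered 24.1 Mb and were 1877 bp wide, with quartiles at 1204 and 2711 bp. Few peaks sat at the limit of the overlap rule. The best overlap was 8 to 60 bp for 5 asynchronous peaks (median score 74.3), and 16 peaks without partner stopped 7 to 91 bp short of a mimosine peak (median score 86.1).

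Most of the asynchronous territory not covered in mimosine cells lay at the edges of sites that both lists held. Mimosine peaks covered 23.9 Mb, or 62.4% of the base pairs of the asynchronous list. A further 9.91 Mb (25.9%) lay in peaks with a partner but outside the outermost mimosine edges. Asynchronous peaks without any partner held 4.18 Mb (10.9%), and stretches between mimosine peaks inside 1 asynchronous peak held 0.272 Mb (0.712%). Of the 14.4 Mb left uncovered, flanks therefore made up 69.0%, whole peaks 29.1% and inner gaps 1.89%. Counted from the other side, 98.9% of mimosine base pairs lay inside asynchronous peaks. Mimosine edges beyond an asynchronous peak added 0.185 Mb, and mimosine peaks without partner 0.0824 Mb.

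**Figure D1:**
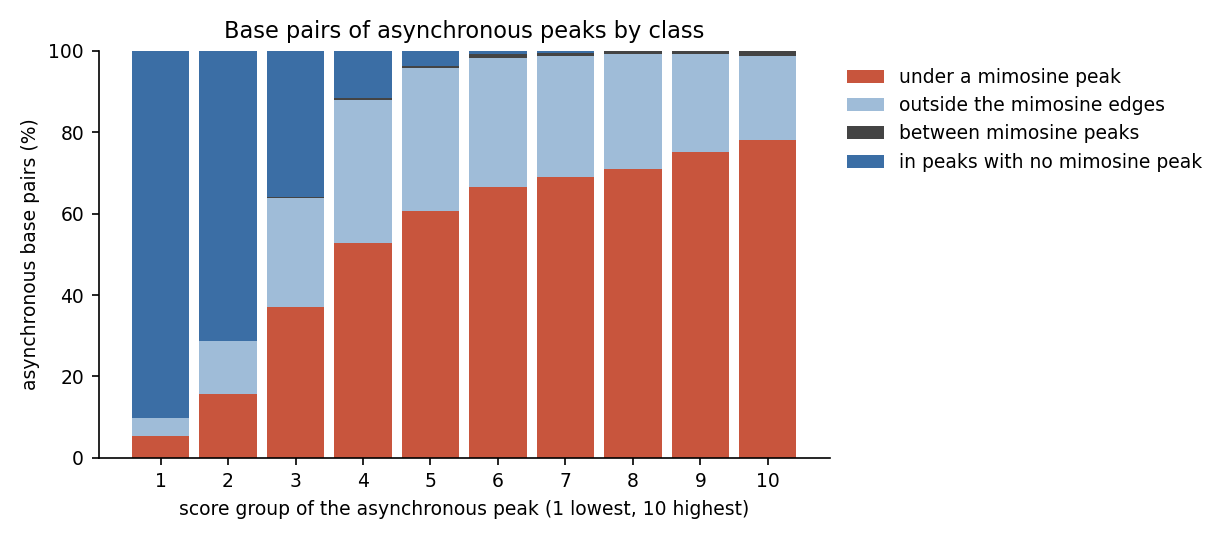
Stacked bars give the share of asynchronous base pairs (vertical axis, %) in each of 4 classes, for 10 groups of asynchronous peaks of rising score (horizontal axis). Whole peaks without partner fill 90.2% of the lowest group, and uncovered flanks fall from 35.2% in the fifth group to 20.5% in the highest.

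Presence of a mimosine peak followed the score of the asynchronous peak. The score is the authors' own value from the peak caller, 10 times the negative base-10 logarithm of its p-value, and serves here to order peaks within a list. Scores were lower in the mimosine list, with a median of 281 (quartiles 116 and 711) against 575 (208 and 1255) in the asynchronous list. The part of this in the overlap and width results was not tested. In 10 groups of about equal size by score, 8.15% (6.71 to 9.79%) of the lowest group had a mimosine peak. The share was 25.7% in the second group, 61.7% in the third, 87.6% in the fourth and 96.2% in the fifth. Above the fifth group, 10 peaks of the sixth and 4 of the seventh were without a partner, and 0 of the 3828 peaks scoring 1058 or more, a count that allows a share of up to 0.0784% (3 counts of the total).
The steep part of this course lay between scores of 82.9 and 407. Peaks without a mimosine partner had a median score of 94.8 and a median width of 1357 bp, against 805 and 3037 bp for peaks with one. Width went with presence within a score group too. In the third group, 69.5% (65.8 to 73.1%) of the wider peaks had a partner, against 53.9% (49.96 to 57.8%) of the narrower ones, split at 1903 bp. The wider peaks of that group also scored slightly higher, with medians of 216 and 202. In the fifth group the shares were 96.6% and 95.9%, within each other's intervals. In the mimosine list, peaks without an asynchronous partner were likewise low in score, with 90 of the 128 in the lowest group of 10 and 28 in the second.

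**Figure D2:**
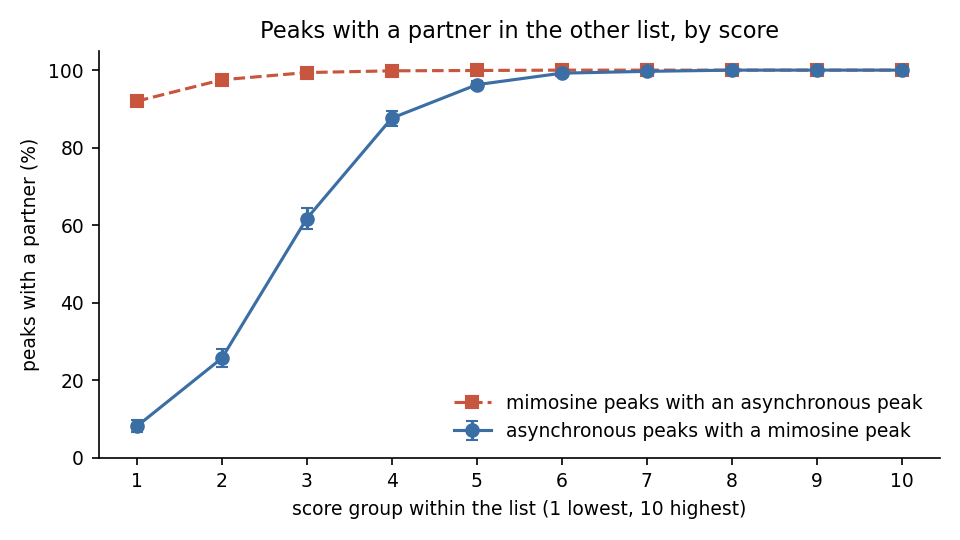
Percentage of peaks with a partner in the other list (vertical axis) against score group within the list (horizontal axis, 10 groups), for asynchronous peaks (circles, bars are exact 95% intervals) and mimosine peaks (squares). The asynchronous course climbs from 8.15% to 96.2% over the lowest 5 groups and is at least 99.2% above; the lowest mimosine group is at 92.0%.

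The strongest asynchronous sites with no mimosine peak were few. Only 26 of the 2828 scored 500 or more, and 14 were at or above the list's median score of 575. The highest was chr9:80911155-80914326 (hg19), 3172 bp wide with a score of 999, at percentile 68.2 of the asynchronous list. The nearest mimosine peak lay 59.1 kb away. A 2999 bp peak, chr2:20187617-20190615, followed with a score of 856 and a mimosine peak 58.5 kb away. Both were far from any mimosine site, whereas 2 peaks of chromosome 11 lay close to mimosine sites. For chr11:128376569-128381161, of 4593 bp and score 814, the distance was 4.66 kb. For chr11:28127705-28130618, of 2914 bp and score 754, it was 0.963 kb. The widest peak without partner was chr17:39257835-39270443, which spanned 12609 bp with a score of 794, and its nearest mimosine peak was 282 kb away. Only 4 peaks without partner were wider than 5 kb. No gene is named for these regions, because the annotation used here is of another genome build.

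Most sites without a mimosine peak stood singly among sites that had one. The 2828 peaks formed 2093 runs of neighbours along the chromosomes, and 1567 of these runs held a single peak, which accounts for 55.4% of the peaks. Runs of 3 or more numbered 132 and held 473 peaks (16.7%). As 77.8% of all asynchronous peaks had a partner, a neighbour with one is common to begin with. The run lengths were not tested against that share. The longest was 13 asynchronous peaks in a row at chr6:28556730-28776620, a span of 220 kb, with scores from 52.9 to 197. Next came 8 peaks in 587 kb at chr1:148927731-149514410 with scores up to 122, and 7 peaks in 72.5 kb at chr17:62563526-62636069 with scores up to 151. A run of 6 peaks within 44.3 kb at chr12:53738014-53782353 reached a score of 405, the highest within these longest runs. Another 6, spread over 1266 kb at chr12:46779875-48045924, reached 253. All of these runs stayed below the median score of the list. Over all peaks without partner, the median distance to the nearest mimosine peak was 29.8 kb (interquartile range 8.45 to 91.4 kb). It was 1 kb or less for 167 of them (5.91%) and over 100 kb for 646 (22.8%).

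The share with a mimosine peak was lower among asynchronous sites close to one another, and so was their score. Peaks within 2 kb of another asynchronous peak had a mimosine partner in 61.8% of 1384 cases (59.2 to 64.4%), against 80.5% of 4753 peaks whose neighbour was 10 to 50 kb away. The former also had a median score of 297 and the latter 591. When the shares within the 10 score groups were averaged with the weights of the whole list, the values became 77.4% and 78.2%. Within score groups 2 to 4 pooled, where presence changed most with score, the shares were 47.7% of 444 peaks (43.0 to 52.5%) and 61.7% of 1414 (59.1 to 64.2%). Across these groups presence itself rose from 25.7% to 87.6%. The mix of scores inside the pool was not matched between distance classes, so the pooled shares do not separate distance from score. Over the 6 distance classes, the weighted share ranged from 77.2% to 79.2%. Isolated sites, more than 200 kb from the next asynchronous peak, had a partner in 80.9% of 973 cases and a weighted share of 77.4%.

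Chromosomes differed moderately. The share of asynchronous peaks with a mimosine peak was lowest on chromosome 4, at 72.2% of 496 peaks (68.0 to 76.1%), and highest on chromosome 16, at 84.7% of 580 (81.5 to 87.5%), with a median of 77.7% over the 22 chromosomes. Chromosome 19 was second lowest, at 73.7% of 911 peaks (70.7 to 76.5%), and also had the lowest median score, 401. Its share weighted to the score groups of the whole list was 79.1%. Chromosome 4 remained the lowest after such weighting, at 73.9%. Its lower-scoring peaks, those in the lowest 5 groups, had a partner in 45.6% of 250 cases (39.3 to 52.0%), the lowest of any chromosome, and those of chromosome 22 in 64.9% of 174 (57.4 to 72.0%), the highest. The weighted share was highest on chromosome 21, at 83.1%, which rests on 117 peaks. In covered base pairs, chromosome 6 was lowest at 57.6% and chromosome 21 highest at 68.8%.

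At a scale of 5 Mb, the range was wider. In the 235 windows with at least 20 asynchronous peaks, the share with a partner ran from 46.7% to 100%, with a median of 79.2% (interquartile range 72.7 to 85.0%). The lowest window was 80 to 85 Mb of chromosome 7, where 21 of 45 peaks (31.7 to 62.1%) had a mimosine peak. Its peaks were weak, with a median score of 130, and giving each peak the share of its score group leads to 44.9%. The window at 25 to 30 Mb of chromosome 6, which holds the longest run described above, was dense. It had 125 asynchronous peaks, of which 65 (52.0%, 42.9 to 61.0%) had a partner, against 57.4% from the score groups. At 80 to 85 Mb of chromosome 4, 14 of 27 peaks (51.9%, 31.9 to 71.3%) had one, against 66.8% from the score groups, the largest shortfall of any window. At the other end, all 24 peaks at 15 to 20 Mb of chromosome 16 and 25 of 26 in the adjoining window had a partner. The score groups gave 87.0% and 89.3% there. Across windows, the share and the value from the score groups had a Spearman's rho of 0.81, which is a description, since both use the same peaks.

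Where the lists matched 1 to 1, the mimosine peak sat inside the asynchronous peak and was narrower. There were 8815 such pairs, in which the asynchronous peak had a median width of 2931 bp and the mimosine peak one of 2000 bp. The mimosine peak was narrower in 8648 pairs (98.1%, 97.8 to 98.4%), wider in 166 and equal in 1. Mimosine width over asynchronous width had a median of 0.696 and quartiles at 0.573 and 0.804. A mimosine peak narrower by 1.5-fold or more was found in 3810 pairs (43.2%), and one wider by 1.5-fold or more in 5 (0.0567%). In 7880 pairs (89.4%, 88.7 to 90.03%) both mimosine edges lay within the asynchronous peak. In 892 (10.1%) they passed it on 1 side, and in 43 (0.488%) on both. Narrowing was thus the common state of the pairs, and the median ratio per chromosome stayed between 0.664 on chromosome 6 and 0.734 on chromosome 20.

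**Figure D3:**
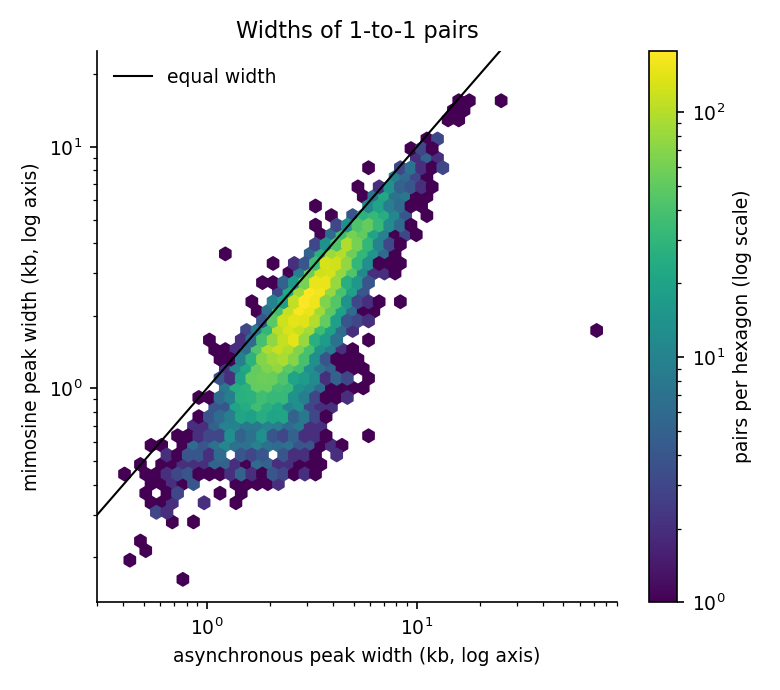
Width of the mimosine peak (vertical axis, kb) against width of its asynchronous partner (horizontal axis, kb) for the 8815 1-to-1 pairs, both axes logarithmic, with colour for the number of pairs. Nearly all pairs lie below the line of equal width, and the single point far to the right is the 72.0 kb peak of chromosome 7.

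The uncovered flanks were of similar size on both sides over the set of pairs. From the asynchronous to the mimosine edge, the median distance was 385 bp (205 to 658 bp) at the edge of lower coordinate and 390 bp (208.5 to 672 bp) at the edge of higher coordinate. Within a pair the sides went their own way, with a Spearman's rho of 0.04 between them across pairs. In 1788 of the 7880 pairs with a nested mimosine peak (22.7%), at least 80% of the uncovered length lay on 1 side. The centres of the peaks were a median of 160.5 bp apart (71 to 296.5 bp), or 5.57% of the asynchronous width, and more than 500 bp apart in 814 pairs (9.23%).

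Between score groups, the median width difference was nearly constant in base pairs over most of the range, while the ratio was not. From the fourth to the ninth score group of the asynchronous list, the median asynchronous width of the pairs went from 2219 to 3862 bp and the median mimosine width from 1304 to 2931 bp. The median difference within pairs stayed between 853 and 896 bp. The median ratio went from 0.604 to 0.768 over the same groups. In the highest group the widths were 5229 and 4107 bp, the difference 1040 bp and the ratio 0.799. In the lowest groups, only those sites enter that had a mimosine peak at all, 93 pairs in the first group and 307 in the second, with differences of 462 and 664 bp. Across pairs, the ratio had a Spearman's rho of 0.40 with the asynchronous score and 0.22 with the asynchronous width. Grouped by asynchronous width instead, the difference was not constant. Its median rose from 572 bp for peaks up to 2 kb to 1747 bp for those of 6 to 10 kb. The median ratio of these classes was 0.631 and 0.753.

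**Figure D4:**
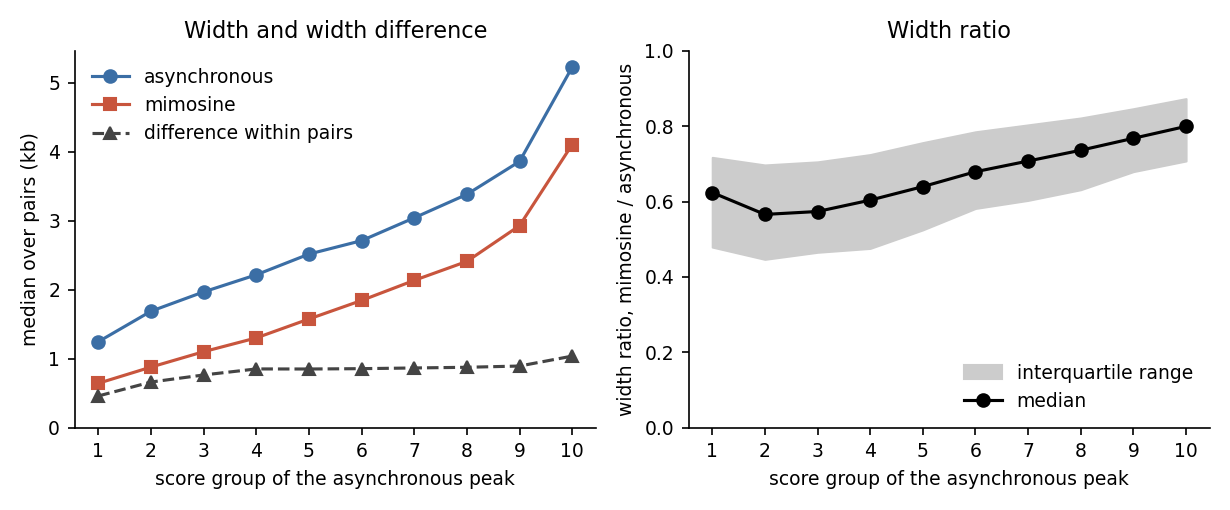
Left, median width (vertical axis, kb) of the asynchronous and mimosine peaks of 1-to-1 pairs and the median difference within pairs, by score group of the asynchronous peak (horizontal axis). Right, the width ratio (median and interquartile range) by the same groups: the difference is level at 853 to 896 bp from group 4 to group 9, while the ratio climbs from 0.604 to 0.768.

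Single sites departed from this course in both directions. Among the 5475 pairs with an asynchronous score at or above the median, the ratio had a median of 0.740, and 110 (2.01%) were wider in mimosine cells. The smallest ratio was at chr7:130576956-130648968. There a 72.0 kb asynchronous peak with a score of 1255 had 1 mimosine peak of 1673 bp near its lower end, which covered 2.32% of it. At chr7:14027503-14031803, a 4301 bp peak with a score of 961 had a mimosine peak of 524 bp near its middle, with 1758 and 2019 bp uncovered on the sides. At chr10:10832421-10837039 and chr11:85337993-85341471 the small mimosine peak, of 577 and 453 bp, lay toward the lower edge of asynchronous peaks of 4619 and 3479 bp. The mimosine scores of these last 3 sites were 64.1, 53.1 and 54.7, in the lowest group of their list. The largest ratio in this set was 1.42, at chr17:7253181-7256383, where the mimosine peak of 4564 bp ran 1401 bp past the upper edge of the asynchronous peak of 3203 bp. A ratio of 1.25 was found at chr9:103188467-103193668, where a mimosine peak of 6507 bp passed an asynchronous peak of 5202 bp on both sides.

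The order of sites by score was similar in both lists, with a Spearman's rho of 0.90 over the 8815 pairs. The percentile in the mimosine list minus that in the asynchronous list had a median of -4.77 points (interquartile range -13.4 to 2.07). The lists differ in length and in which sites they hold, so such a shift gives a position within each list and no change in binding. A position lower by more than 30 points was found at 303 sites and a higher one at 31. The lowest relative position was at chr14:75893856-75896250, percentile 71.0 in asynchronous and 4.11 in mimosine cells, where the widths were 2395 and 518 bp. At chr7:97498607-97502388 the percentiles were 63.8 and 2.19. The opposite was seen on chromosome 12, at sites 9.18 kb apart that both stood higher in the mimosine list. The site chr12:125411592-125413631 went from percentile 13.05 to 71.3 and had a mimosine peak of 2355 bp against 2040 bp. The site chr12:125422808-125426183 went from 22.3 to 66.0, with widths of 4101 and 3376 bp. At chr11:567816-569570 the percentiles were 15.8 and 69.1 and the widths 2722 and 1755 bp, and at chr3:39192004-39196014 they were 40.0 and 87.0 with 5060 and 4011 bp. These sites, picked for their rise in score percentile, were also wider under mimosine, unlike most pairs. In the asynchronous list wider peaks also had higher median scores, so their greater width is not separate from that choice. At the top, 894 asynchronous and 305 mimosine peaks of the lists shared a score of 3100. The 77 and 30 peaks above that value were set to it for ranking, so order is not resolved there. The value of 3100 was reached by 738 asynchronous and 239 mimosine peaks of the pairs, and by both peaks in 234.

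Some broad asynchronous peaks were divided into several mimosine peaks by short gaps. Of the 9931 asynchronous peaks with a partner, 1075 (10.8%, 10.2 to 11.5%) held 2 or more mimosine peaks: 971 held 2, 86 held 3 and 18 held 4 or more. The divided peaks had a median width of 4137 bp and a median score of 1223, against 2930 bp and 762 for those with 1 mimosine peak. Among peaks with a partner, the divided share went from 0.962% in the lowest score group to 22.2% in the highest. Division was seen in 1.77% of peaks up to 2 kb wide that had a partner, in 11.6% of those of 3 to 4 kb, in 32.3% of those of 6 to 10 kb and in 62.2% of the 111 over 10 kb. The 1206 gaps had a median of 100 bp (34 to 223 bp), and 1072 (88.9%) were 500 bp or less. Gap length leaves out the uncovered flanks, so it does not give the coverage of divided sites. With peaks of a list within 1 kb of each other merged, 129 divided peaks were left, with scores of 100 or more in both lists 414, and with the 5617 top-scoring peaks of each list 100. The reverse was rare: 30 mimosine peaks each overlapped 2 asynchronous peaks, across gaps of 6 to 643 bp. The widest of them was chr9:130672535-130685092, 12558 bp, which overlapped parts of asynchronous peaks of 13173 and 5039 bp that lay 152 bp apart.

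The most divided site was chr1:154932499-154950398, a 17.9 kb asynchronous peak with a score of 3100. It held 7 mimosine peaks of 526 to 3729 bp, which covered 75.7% of it. At chr12:76213936-76228916, 14.98 kb wide, 6 mimosine peaks covered 60.2%, and at chr3:115070062-115079597, 9.54 kb wide, 6 covered 65.8%. At chr7:81139977-81149636, 1 mimosine peak of 5263 bp stood among 4 smaller ones. These sites kept a peak over most of their length, as did the widest asynchronous peaks apart from the one on chromosome 7. The 31.2 kb peak chr10:31264911-31296125 held a mimosine peak of 22922 bp, the widest of that list, and was covered over 82.6%. The 30.1 kb peak chr12:66024341-66054394 was covered over 81.6% by 2 mimosine peaks, chr1:33876906-33901663 (24.8 kb) over 84.6% by 3, and chr9:21546456-21574864 (28.4 kb) over 63.7% by 2.

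**Figure D5:**
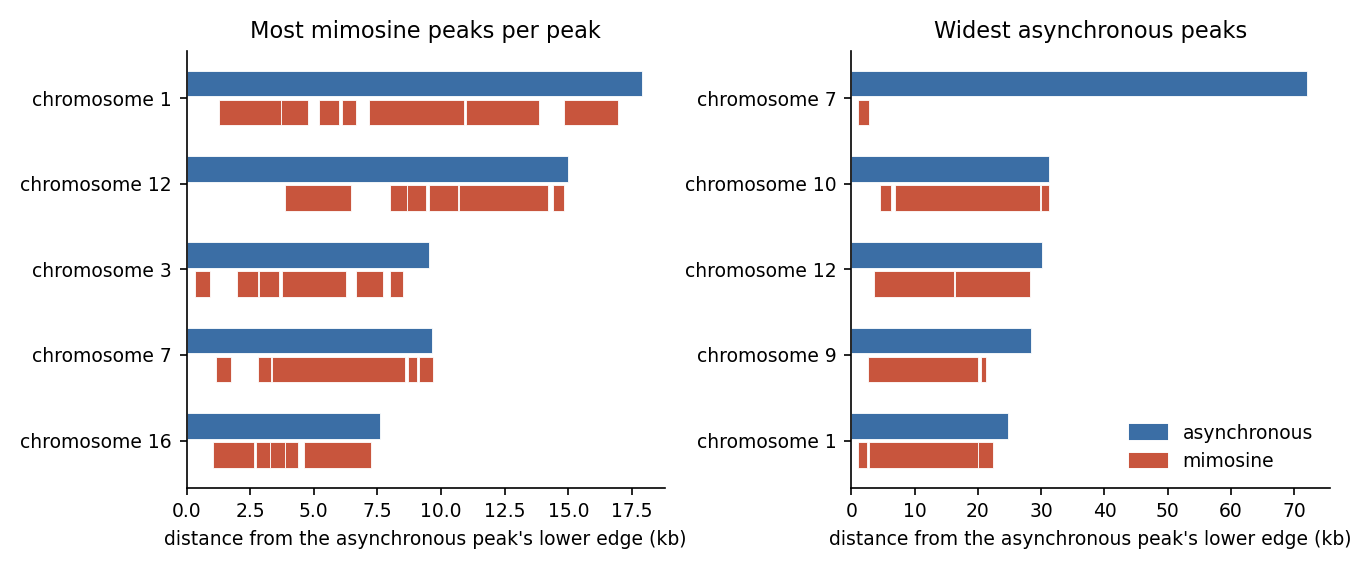
Asynchronous peaks (upper bar of each row) and the mimosine peaks overlapping them (lower bars), drawn to scale from the asynchronous peak's lower edge (horizontal axis, kb), for the 5 sites with the most mimosine peaks (left) and the 5 widest (right). Thin white lines mark borders of mimosine peaks and not the size of a gap; the 72.0 kb peak of chromosome 7 has a single mimosine peak, while the other 4 widest are covered over 63.7 to 84.6%.

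The 128 mimosine peaks without an asynchronous partner were small. Their median width was 517 bp (interquartile range 396 to 751 bp) and their median score 59.1, and 7 scored 100 or more. They lay on all 22 chromosomes, with at most 11 on any of them. The nearest asynchronous peak was a median of 4.14 kb away (interquartile range 0.454 to 42.6 kb). It lay within 5 kb for 67 (52.3%) and more than 100 kb away for 18 (14.1%). The highest-scoring was chr3:48592870-48594392, 1523 bp wide, with a score of 226 (percentile 43.4 of the mimosine list) and the nearest asynchronous peak 50.4 kb away. It was followed by chr17:41439021-41440481 (1461 bp, score 154), 4.48 kb from an asynchronous peak, and chr2:219150692-219152365 (1674 bp, score 139), 3.07 kb from one.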

How the data were processed

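Chromatin immunoprecipitation with sequencing was done on RKO cells. The submitters' processing notes list MACS 1.4.0, bedtools, Bowtie 0.12.8 and SAMtools but give no settings. For each BRPF3 library the authors deposited a list of peak positions and scores, and the deposited score is read as 10 times the negative base-10 logarithm of the caller's p-value, from its lowest value of 50. The notes name hg18 and hg19. In hg18 218 asynchronous peaks end past their chromosome, in GRCh38 180 and in hg19 0, by chromosome lengths entered by hand, and coordinates here are hg19, 1-based. No genome or annotation of that build was used, so planned gene lists were not run and no sequence is shown.

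Peaks were paired by an overlap of 1 bp. Pairs are 1 to 1 where neither peak touches another of the other list. Score groups are 10 equal parts of a list by rank, with scores above 3100 set to 3100. Shares have exact Clopper-Pearson 95% intervals, except that the count of 0 among 3828 peaks has 3 counts of the total as its upper limit. Weighted shares average the 10 score groups by their size in the whole list. Named regions follow a rule on rank (score, width ratio, percentile, number of partners, width, share per window, run length), and the text names some of them. The comparison and its measures were chosen with earlier results of these data known. Pairing and base-pair classes were tested on simulated data, in which asynchronous peaks were dropped, trimmed and divided. Calculations used SciPy 1.17.1, NumPy 2.4.6 and pandas 2.3.3 under Python 3.11.15, with matplotlib 3.10.9 for figures.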

Additional observations from a re-analysis of the deposited data

How the results depend on the processing

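No paired analysis was possible because each condition has 1 library. With the asynchronous peaks over 10 kb left out, and with chromosomes X and Y added, all 6 results on overlap, width, division and coverage stayed within their counting intervals, or for divided peaks within 1.5 times. Asynchronous peaks with a mimosine peak came to 75.8% with scores of 100 or more in both lists, 87.2% with the 5617 top-scoring peaks of each list, 63.6% with a reciprocal overlap of 50%, 76.0% with centres within 1 kb, 79.8% with peaks of a list within 1 kb merged, and, in alternatives added after seeing the data, 95.3% for asynchronous scores of 200 or more and 79.1% when a gap of up to 1 kb counted. Mimosine peaks with an asynchronous peak came to 99.8%, 89.0%, 72.2%, 89.3% and 99.2% under the first 5 of these. Under scores of 100 or more, top-scoring peaks and merging, in that order, the median width ratio was 0.712, 0.746 and 0.705, and divided peaks numbered 414, 100 and 129. The share narrower in mimosine was 97.7% for top-scoring peaks and 97.5% with merging, and the base pairs covered were 60.0% for scores of 100 or more and 65.1% for top-scoring peaks. By construction, a partner can fall below a score limit, and merging closes gaps; for the remaining shifts the cause was not tested. The lowest window share was 53.6% in windows of 10 Mb, at 80 to 90 Mb of chromosome 7. With scores of 100 or more the lowest window was another, 25 to 30 Mb of chromosome 6, at 42.6% of 94 peaks, just below the interval of its value over all peaks (52.0%, 42.9 to 61.0%). Spearman's rho of the scores was 0.88 with scores of 100 or more. Gene lists were not run. Unknown read depth limits what an absent or narrow peak means.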
